A study of Glycine max with 12 samples.

Results

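Glutathione S-transferases (GSTs) of soybean (Glycine max) roots were described here under aluminium (Al) stress. A probe set, the group of probes that reads 1 transcript, was taken as a GST when the gene title of the array annotation holds "glutathione S-transferase" or "glutathione transferase". This rule found 64 of the 66195 main probe sets, for 58 of the 33801 genes named there, on 16 chromosomes. Titles and symbols place 37 of them in the tau class, 13 in phi, 2 in theta, 1 in zeta and 1 among the dehydroascorbate reductases (DHARs), and give no class for 10.

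The study used an Al-tolerant variety, KF, and an Al-sensitive variety, Guangfengmaliaodu (GF), and was made to find candidate genes for Al tolerance. The Al-treated groups were KF and GF roots held in 0.5 mM CaCl2 at pH 4.3 with 25 µM AlCl3 for 6, 12 or 24 h. Their control groups were roots of the same variety held for the same times in the same acid calcium solution with 0 µM AlCl3. Seedlings had been germinated in sand, whole roots were sampled, and how many plants went into each array is not given in the sources used here. There were 12 Affymetrix arrays, 1 per condition, so nothing was replicated.

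GSTs join the tripeptide glutathione, or its legume relative homoglutathione, to reactive compounds, and some act as peroxidases. The tau and phi classes are large in plants and are known for detoxifying herbicides and for responding to many stresses. Zeta enzymes act in tyrosine breakdown, and DHARs use glutathione to regenerate ascorbate. Glutathione conjugates are carried into the vacuole by transporters of the ABCC family. Al ions in acid soil stop root growth, and oxidative damage is a known part of their toxicity.

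Values are array intensities on a linear scale, normalized between arrays by the authors. Effects are differences of log2 intensity, so an effect of 1 is a 2-fold change, and the value after ± is limma's standard error. Each p-value, adjusted by the Benjamini-Hochberg method over 49646 probe sets, measures an effect against its variation between times. "Passed" means an adjusted p below 0.05. An effect within 1 variety rests on 3 pairs of an Al and a control array. Its standard error and p-value use the variation of both varieties, which were fitted together. An effect over both varieties is the mean of the KF and GF effects and rests on 6 pairs, so 1 variety alone can carry it.

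The 12 arrays had median log2 intensities from 1.67 to 1.70. Background probe sets that match no genome had median intensities from 3.02 to 4.65, highest in the GF 24 h control array, so values at or below this range are not distinguishable from background. The KF 24 h Al array stood apart from the rest, with a median correlation across probe sets of 0.729 with the other arrays, against 0.856 for the GF 24 h Al array, the next lowest. Summed intensity of 80 root marker probe sets was 1519 to 1997 in Al roots and 1228 to 1460 in control roots, and of the 72 tested over both varieties 17 rose and 2 fell (all probe sets 6.59% and 7.19%). The same sum was 189 to 367 in Al roots and 241 to 360 in control roots for 51 shoot marker probe sets, 74.2 to 234 and 202 to 269 for 3 nodule marker probe sets, and 48.9 to 53.4 and 50.1 to 54.6 for 21 seed marker probe sets. Of these lists 1 of 29 tested shoot probe sets fell, and no other tested probe set passed. What these marker levels contribute to the GST results was not tested, and in whole roots fewer cells of a type and less RNA per cell cannot be told apart.

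Of the 64 GST probe sets, 47 for 44 genes passed the filter on dim signal and were tested. The other 17 had intensities from 1.37 to 4.32 with a median of 1.90, and 203 of their 204 values were below 3. The members nearest to the limit on mean log2 intensity were LOC100819377 (1.11) and GSTU50 (1.12) just outside it, and LOC100791741 (1.15) and LOC100781859 (1.17) just inside. Of the 47, 5 had a mean over the 6 control arrays below the limit and passed the filter through Al arrays, among them GSTU24, HSP26-A and LOC100809206. Phi members were 8 of the tested probe sets and tau members 29.

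The first comparison asked which GSTs changed with Al over both varieties. Of the 47 tested probe sets 15, for 14 genes, rose and 3, all of 1 locus, fell. That is 31.9% rising and 6.38% falling, against 6.59% rising and 7.19% falling of all probe sets tested (13.8% in either direction). The median effect of the tested GSTs was 0.20, and that of all tested probe sets −0.04. Among tau members 13 of 29 rose and none fell, with a median of 0.59. Among phi members none of 8 rose and 3 fell, with a median of −0.14. These 3 are probe sets of the GSTF11 locus alone. The remaining rises were 2 of the 7 tested members with no stated class. Of the 15 rises, 2 (GSTU24 and LOC100809206) were of members that passed the filter through Al arrays. Without the 12 h arrays 1 of the 47 passed, and 93 of all 49646, while the leading effects were about as large with wider errors: GSTU42 had 4.98 ± 0.47 in place of 4.90 ± 0.32, and GSTU21 3.68 ± 0.47 in place of 3.69 ± 0.34. Without the 6 h arrays 10 of the 47 passed (5.47% of all probe sets). Without the pair that holds the KF 24 h Al array 16 passed (10.7% of all).

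**Figure D1:**
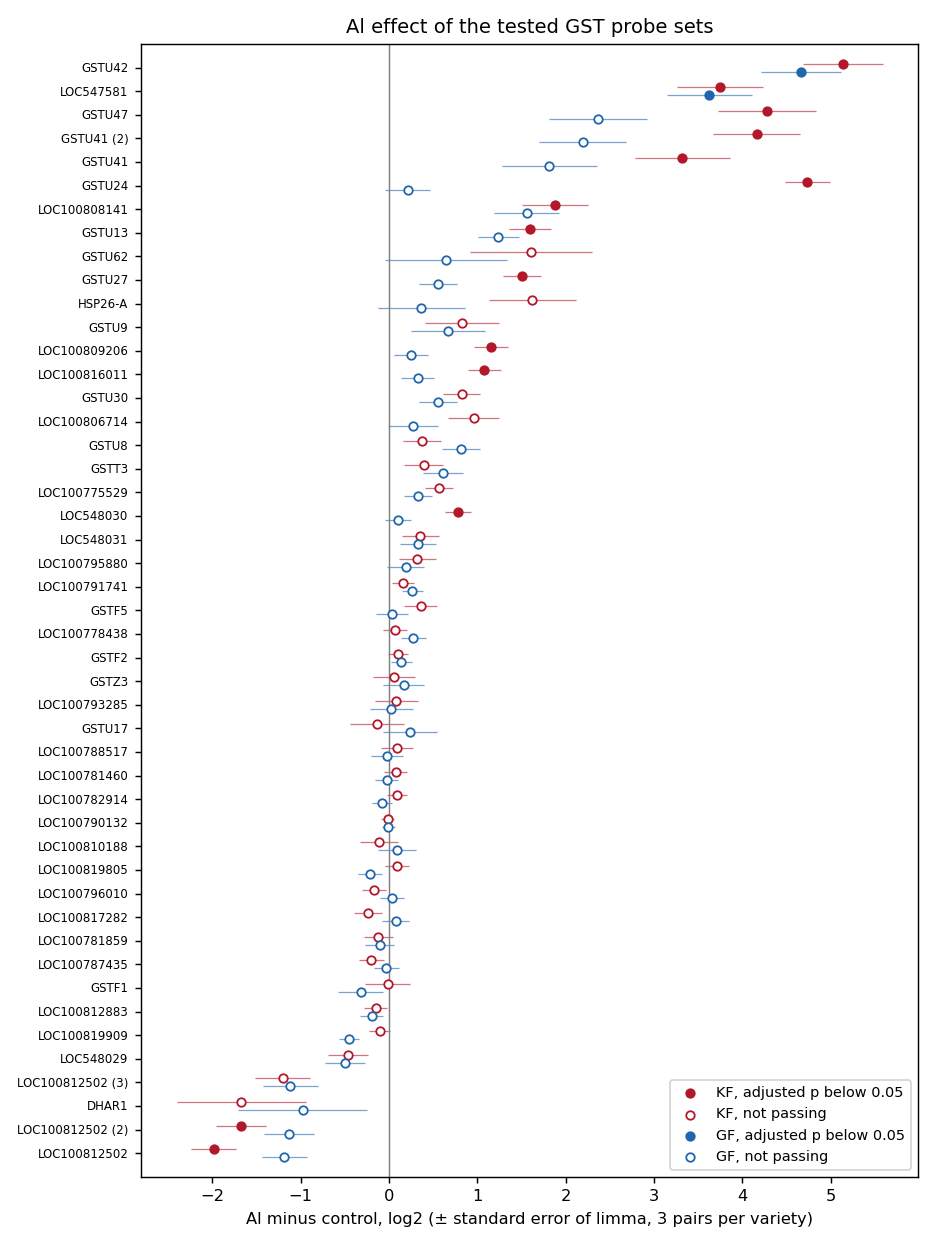
Al effect (Al minus control, log2) of the 47 tested GST probe sets in KF (red, upper point of each row) and GF (blue, lower point), each the mean of 3 pairs of arrays with limma's standard error, ordered by the mean of both varieties. Filled points passed the test: the long right arm is made of tau genes, led by GSTU42, and the 3 filled or open rows near the lower end named LOC100812502 are GSTF11. LOC547581 is GSTU21, LOC100808141 is GSTU25, and a number in brackets marks a further probe set of a gene.

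The tau gene GSTU42 (GLYMA10G33650, chromosome 10, 41955569 to 41956722) had the largest effect over both varieties among the tested GSTs. In KF its intensity was 103, 99.4 and 205 in Al roots at 6, 12 and 24 h, against 7.47, 2.61 and 2.43 in control roots. In GF it was 60.5, 54.2 and 136 in Al roots, against 2.33, 2.87 and 4.12 in control roots. Every Al array therefore lay far above every control array, and all controls but the KF 6 h one were at background. GSTU42 rose by 4.90 ± 0.32 over both varieties (adjusted p = 0.00059), by 5.14 ± 0.45 in KF (adjusted p = 0.0033) and by 4.66 ± 0.45 in GF (adjusted p = 0.00962). Where one side of a comparison lies at background, the size of the effect depends on that background and is no exact fold. This holds here, for GSTU24 and for GSTU47, and for GSTU25, GSTU13 and LOC100816011, whose controls lay at or near background.

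GSTU21 (LOC547581, GLYMA06G20730, chromosome 6, 17119174 to 17121044), also of the tau class, was measured well above background in all arrays. Its intensity was 483, 473 and 1098 in KF Al roots, against 41.3, 51.6 and 48.6 in KF control roots. In GF it was 167, 618 and 1125 in Al roots, against 38.4, 33.2 and 48.3 in control roots. All Al arrays were above all control arrays, and the Al level of both varieties was highest at 24 h. GSTU21 rose by 3.69 ± 0.34 over both varieties (adjusted p = 0.00181), by 3.75 ± 0.48 in KF (adjusted p = 0.0108) and by 3.63 ± 0.48 in GF (adjusted p = 0.0244).

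GSTU42 and GSTU21 were the 2 GST probe sets of 47 that rose in GF, where 0.719% of all tested probe sets rose and 0.109% fell (0.828% together). In KF, 12 GST probe sets for 11 genes rose and 2 fell, against 2.78% rising and 2.7% falling of all (5.48% together). The 12 include GSTU24 and LOC100809206, which passed the filter through Al arrays. The medians of the tested GSTs were 0.16 in KF and 0.19 in GF, and 32 of 47 effects were above 0 in each variety. The test of the difference, the Al effect of KF minus that of GF, passed for none of the 47 by limma, where 7 had an unadjusted p below 0.05, and for 0.00403% of all (0.00201% higher and 0.00201% lower in KF). The lowest adjusted p of a GST was 0.0573, so the unequal counts do not show that the varieties differ. The KF count was 2 with the KF 12 h pair left out (0.512% of all probe sets). It was 9 with the KF 24 h pair left out (1.85% of all). It was 6 when no 6 h array was used (1.6%) and 0 when no 12 h array was used (0%). The GF count was 0 with the GF 12 h or GF 24 h pair left out and when no 6 h or no 12 h array was used. In those fits, in that order, 0.0101%, 0.0846%, 0.0524% and 0% of all probe sets passed. The GF count was 1 with the GF 6 h (0.205% of all), KF 6 h (0.649%) or KF 12 h (0.352%) pair left out. It was 4 with the KF 24 h pair left out (2.87%).

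A further 3 tau probe sets for 2 genes showed large rises over both varieties. GSTU47 (GLYMA15G40190, chromosome 15, 47176644 to 47178196) had intensities of 39.9, 48.7 and 169 in KF Al roots at 6, 12 and 24 h, against 4.13, 3.42 and 3.20 in KF control roots. It had 6.22, 13.7 and 53.4 in GF Al roots, against 2.67, 2.76 and 4.45 in GF control roots. All Al arrays were above all controls, and within each variety the 24 h Al array was highest. The controls all lay within or below the background range, so the sizes of the Al effects are not exact. GSTU47 rose by 3.32 ± 0.39 over both varieties (adjusted p = 0.00448) and by 4.28 ± 0.55 in KF (adjusted p = 0.0108), and its GF effect was 2.37 ± 0.55 (adjusted p = 0.118).

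GSTU41 had 2 probe sets. The one on chromosome 8 (GLYMA08G18690, 14050484 to 14052054) had intensities of 39.3, 49.6 and 108 in KF Al roots, against 5.59, 8.90 and 4.24 in KF control roots, and 11.6, 34.7 and 52.3 in GF Al roots, against 8.02, 8.63 and 7.0 in GF control roots. The groups did not overlap, though the GF 6 h Al array was close to the controls. Its effect was 2.57 ± 0.38 over both varieties (adjusted p = 0.00901), 3.32 ± 0.54 in KF (adjusted p = 0.0211) and 1.82 ± 0.54 in GF (adjusted p = 0.188). The other, which the annotation places on chromosome 20 (1442096 to 1442212) and marks as able to bind several genes, had an effect of 3.18 ± 0.35 over both varieties (adjusted p = 0.00352). Its intensity was 113, 168 and 312 in KF Al roots against 12.4, 8.58 and 9.71 in KF control roots, and 40.3, 155 and 223 in GF Al roots against 22.8, 22.2 and 28.7 in GF control roots. Both probe sets thus gave the same direction at all 3 times in each variety.

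GSTU13 (GLYMA03G16600, chromosome 3, 21083396 to 21085323) rose less. Its intensity was 10.8, 15.9 and 9.81 in KF Al roots, against 3.80, 4.48 and 3.58 in KF control roots, and 6.5, 11 and 16.7 in GF Al roots, against 3.94, 4.92 and 4.66 in GF control roots. Al and control arrays did not overlap. GSTU13 rose by 1.42 ± 0.17 over both varieties (adjusted p = 0.00445) and by 1.60 ± 0.24 in KF (adjusted p = 0.0162), while its GF effect was 1.24 ± 0.24 (adjusted p = 0.0752). Its controls lay within or just above the background range, so these sizes are not exact. The GST LOC100816011, with no class given, rose by 0.70 ± 0.13 over both varieties and by 1.08 ± 0.19 in KF (adjusted p = 0.019 and 0.0257). Its GF effect was 0.33 (adjusted p = 0.448), and its controls also lay within or just above the background range. Smaller rises over both varieties were those of the tau genes GSTU8 (0.59, adjusted p = 0.043), GSTU49 (LOC100775529, 0.45, adjusted p = 0.0403, marked as able to bind several genes) and GSTU51 (LOC548030, 0.44, adjusted p = 0.0351, with a GF effect of 0.11). These last 3 lay within or below the background range in most arrays, where they are not distinguishable from background.

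**Figure D2:**
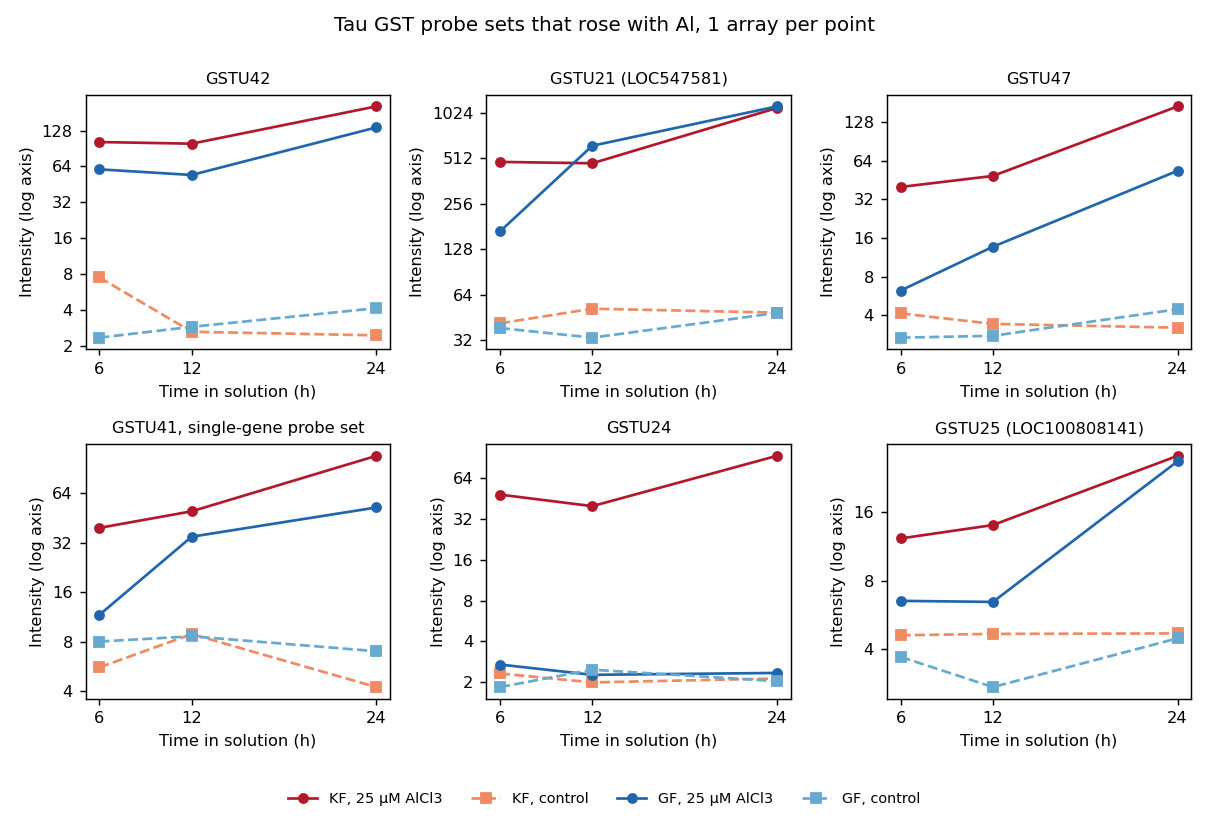
Intensity (log axis) of 6 tau GST probe sets by hours in solution, with 1 array per point: KF Al (red circles), KF control (orange squares), GF Al (blue circles) and GF control (light blue squares). For GSTU42, GSTU21, GSTU47, GSTU41 and GSTU25 both Al lines run above both control lines, whereas for GSTU24 the KF Al line alone leaves the floor, at 39.9 to 94.1.

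GSTU24 (LOC100807613, GLYMA07G16830, chromosome 7, 16494026 to 16495340), a tau gene, had the lowest adjusted p of the tested GSTs for the difference between varieties under Al. In KF its intensity was 48.6, 39.9 and 94.1 in Al roots at 6, 12 and 24 h, against 2.31, 1.98 and 2.12 in control roots. In GF it was 2.69, 2.26 and 2.33 in Al roots, against 1.83, 2.46 and 2.03 in control roots. The 3 KF Al arrays were high and the other 9 arrays were all at background. GSTU24 rose by 4.73 ± 0.26 in KF (adjusted p = 0.00123), and its GF effect was 0.21 ± 0.26 (adjusted p = 0.732). Its mean log2 intensity over the control arrays was 1.08, below the limit of the filter, so Al arrays brought it into the test. Without the KF Al arrays the mean was 1.14, just above the limit.

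The difference between these GSTU24 effects was 4.52 ± 0.36, with an adjusted p of 0.0573, which missed the threshold. It passed with no filter on dim probe sets (adjusted p = 0.0392), without blocks (0.00805), with the KF 24 h pair left out (0.0216) and when no 24 h array was used (0.0253), and over all settings the adjusted p ran from 0.00805 to 1. Compared directly, KF Al roots had 4.55 ± 0.24 more log2 intensity of GSTU24 than GF Al roots (adjusted p = 7.5e-05). This difference passed in all 16 settings tried, which draw on the same arrays and are no separate evidence. The GF Al arrays were at background, so the size is not exact. In control roots the difference between KF and GF was 0.03 ± 0.24 (adjusted p = 0.979). The annotation marks this probe set of 9 probes as able to bind several genes, so the values may hold signal of close relatives.

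GSTU24 lies in a run of 8 GST probe sets for 8 genes within 91.2 kb of chromosome 7 (16479810 to 16571003). Of these, 7 were tested, 5 rose over both varieties, 4 rose in KF and none passed in GF. The shares of all probe sets that rose were 6.59%, 2.78% and 0.719%. Both the 5 and the 4 include GSTU24 and LOC100809206, which passed the filter through Al arrays. Their GF effects were 0.21 and 0.25, so their rises over both varieties came mostly from KF. GSTU25 (LOC100808141, 16498984 to 16500048, marked as able to bind several genes) had intensities of 12.3, 14.1 and 28.4 in KF Al roots, against 4.58, 4.65 and 4.67 in KF control roots, and 6.51, 6.44 and 26.9 in GF Al roots, against 3.68, 2.71 and 4.45 in GF control roots. Both varieties reached nearly the same level at 24 h. Its effect was 1.72 ± 0.26 over both varieties (adjusted p = 0.0101), 1.87 ± 0.37 in KF (adjusted p = 0.0361) and 1.56 ± 0.37 in GF (adjusted p = 0.126).

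GSTU27 (16502885 to 16506099), whose probe set also lists the neighbouring gene LOC547578, had 18.9, 21.4 and 16.1 in KF Al roots, against 6.46, 7.23 and 6.12 in KF control roots. In GF it had 7.45, 6.03 and 7.83 in Al roots, against 4.38, 5.96 and 4.26 in control roots. The KF Al arrays stood above all others, and the GF Al arrays overlapped the KF controls. GSTU27 rose by 1.5 ± 0.21 in KF (adjusted p = 0.0148), and its GF effect was 0.55 (adjusted p = 0.284).

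GSTU30 (16548611 to 16550293) had 11.3, 9.31 and 8.72 in KF Al roots against 5.06, 5.74 and 5.71 in KF control roots, and 10.5, 9.87 and 9.54 in GF Al roots against 6.60, 5.45 and 8.67 in GF control roots. The groups did not overlap, though the GF 24 h control array nearly reached the lowest Al array. GSTU30 rose by 0.69 ± 0.15 over both varieties (adjusted p = 0.0287). LOC100809206 (GLYMA07G16925, 16551611 to 16553662), with no class given, had 5.29, 3.43 and 4.45 in KF Al roots against 2.01, 2.13 and 1.71 in KF control roots, and 2.0, 1.55 and 3.30 in GF Al roots against 1.77, 1.72 and 2.0 in GF control roots. Nearly all of its values lay within or below the background range, and outside KF Al roots its mean log2 intensity was 0.98, below the limit of the filter. Its KF effect of 1.16 ± 0.19 (adjusted p = 0.0233) passed the test, but the arrays that set it also brought the gene into the test, and it was lost in 6 of 15 settings.

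The remaining tested genes of the run were not called. HSP26-A (GSTU23, 16488159 to 16489519), known in soybean as a transcript raised by heat shock, auxin and heavy metals, had 3.76, 2.46 and 16.6 in KF Al roots against 1.93, 1.80 and 1.51 in KF control roots, and 1.98, 2.12 and 1.70 in GF Al roots against 1.34, 1.69 and 1.47 in GF control roots. Its signal left the background in the KF 24 h Al array alone, the array that stood apart, and its KF effect was 1.62 (adjusted p = 0.0961). GSTU22 (LOC100806714, 16479810 to 16481083) had 3.90, 2.58 and 9.70 in KF Al roots against 2.11, 2.20 and 2.87 in KF control roots, and 2.11, 2.65 and 5.17 in GF Al roots against 2.14, 2.55 and 3.0 in GF control roots. GF roots thus differed at 24 h alone, and the effect over both varieties was 0.61 (adjusted p = 0.0835). GSTU33 was under the filter.

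**Figure D3:**
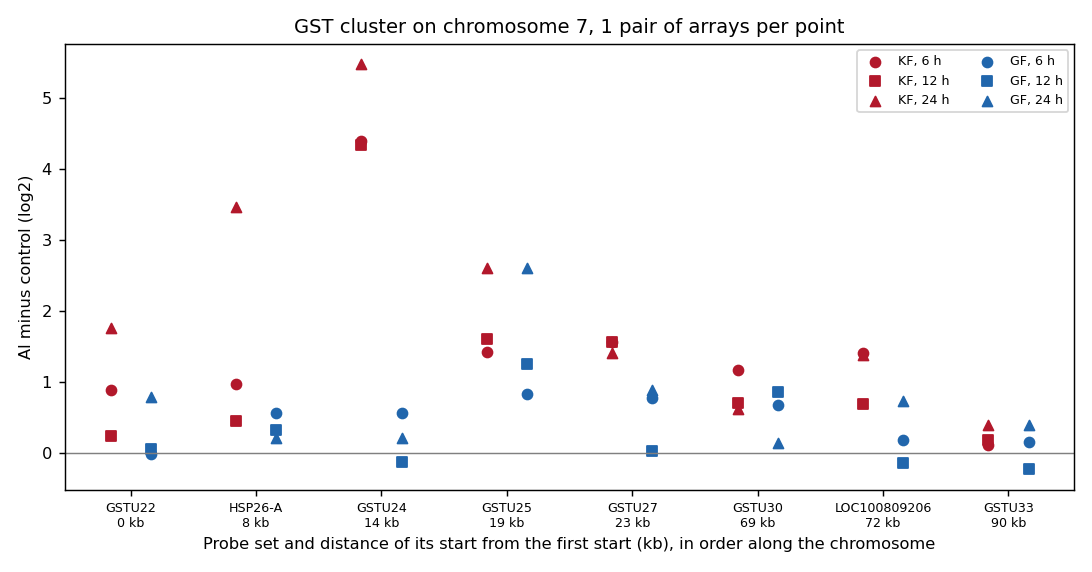
Al effect (Al minus control, log2) of the 8 GST probe sets of the chromosome 7 run, in order along the chromosome with the distance of each start from the first in kb; each point is 1 pair of arrays, KF in red and GF in blue, with circles for 6 h, squares for 12 h and triangles for 24 h. GSTU24 stands out in KF with 3 points above 4, while its GF points lie near 0. GSTU33 was not tested.

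Other runs of neighbouring GSTs did not all follow. On chromosome 5, 3 tested tau genes within a run of 8.07 kb (35031565 to 35039636) had effects over both varieties from 0.05 to 0.34, and none was called. On chromosome 15, 3 of 7 members of a run of 107 kb were tested and all 3 rose, GSTU47 by far the most. The others, GSTU49 and GSTU51, lay within or below the background range in most arrays. Over all 11 runs, in which starts lie at most 100 kb apart, 12 of 28 tested members rose and 3 fell, and outside them 3 of 19 rose and none fell, against 6.59% rising and 7.19% falling of all probe sets. The difference between these counts was not tested, and the 12 include GSTU24 and LOC100809206, which passed the filter through Al arrays. The 3 falls are probe sets of 1 locus. Of the 9 tested members marked as able to bind several genes 4 rose, and 14 members passed when such probe sets were left out.

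Levels in KF and GF were then compared directly in Al roots and in control roots. In Al roots 4 of the 47 tested GSTs were higher in KF and none was lower, against 1.24% higher and 1.02% lower of all probe sets (2.25% together). They were GSTU24, GSTU47, GSTU27 and LOC100809206, and 3 of them lie in the chromosome 7 run. From the intensities above, KF Al roots exceeded GF Al roots by 2.06 ± 0.26 for GSTU47 (4.17-fold, adjusted p = 0.00576) and by 1.40 ± 0.19 for GSTU27 (2.65-fold, adjusted p = 0.00687). For LOC100809206 the difference was 0.99 ± 0.18 (adjusted p = 0.0262), with GF Al roots at background and the KF Al arrays bringing the gene into the test. It was lost in 8 of 15 settings, among them no intensity trend (adjusted p = 0.0582) and no blocks (adjusted p = 0.106). This comparison shares the KF Al arrays with that of Al and control roots in KF. The count was 1 when no 6 h array was used (0.562% of all probe sets). It was also 1 when no 12 h array was used (0.254% of all). Without blocks GSTU47 had an adjusted p of 0.162.

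In control roots none of the 47 passed by limma, where 5 had an unadjusted p below 0.05 and 1.26% of all probe sets passed (0.826% higher and 0.435% lower in KF). The lowest adjusted p was 0.0658, for the chromosome 20 probe set of GSTU41, whose level was lower in KF by 1.27 ± 0.27 on the log2 scale. After cyclic loess normalization this value passed (−1.41, adjusted p = 0.0417). For GSTU47 the control difference was 0.15 (adjusted p = 0.866).

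All 3 falls came from the locus of the phi gene GSTF11 (LOC100812502, GLYMA18G04960, chromosome 18). The probe set on the strand of its transcript (3712792 to 3714911, 8 probes) had 17.7, 11.3 and 9.09 in KF Al roots, against 36.6, 40.8 and 39.6 in KF control roots. In GF it had 22.3, 13.4 and 4.31 in Al roots, against 39.2, 25.0 and 13.7 in control roots. At each time the Al array was lower than its control, and the GF controls themselves were lower at later times, so that Al and control arrays overlapped. The probe set fell by 1.40 ± 0.20 on the log2 scale over both varieties (adjusted p = 0.00833) and by 1.68 ± 0.29 in KF (adjusted p = 0.0241), and its GF effect was −1.13 (adjusted p = 0.14).

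A second probe set of the GSTF11 locus lies on the opposite strand (3715687 to 3716076). It had 9.16, 5.27 and 3.75 in KF Al roots against 24.2, 24.0 and 19.4 in KF control roots, and 12.2, 7.12 and 3.28 in GF Al roots against 21.6, 15.6 and 9.83 in GF control roots, and fell by 1.58 ± 0.18 over both varieties (adjusted p = 0.00393). The third (3716234 to 3717198), also on the opposite strand, overlaps another annotated transcript, GLYMA18G04980, and may read that gene. It had 74.2, 67.8 and 36.7 in KF Al roots against 123, 146 and 125 in KF control roots, and 62.3, 61.8 and 31.3 in GF Al roots against 106, 105 and 111 in GF control roots. Here the Al and control arrays did not overlap, and it fell by 1.16 ± 0.22 over both varieties (adjusted p = 0.0193). Signal of the locus was thus lower with Al in 6 of 6 pairs for each probe set, and 1 of the 3 is on the strand of GSTF11. The other 5 tested phi members had effects between −0.17 and 0.20 and none was called.

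**Figure D4:**
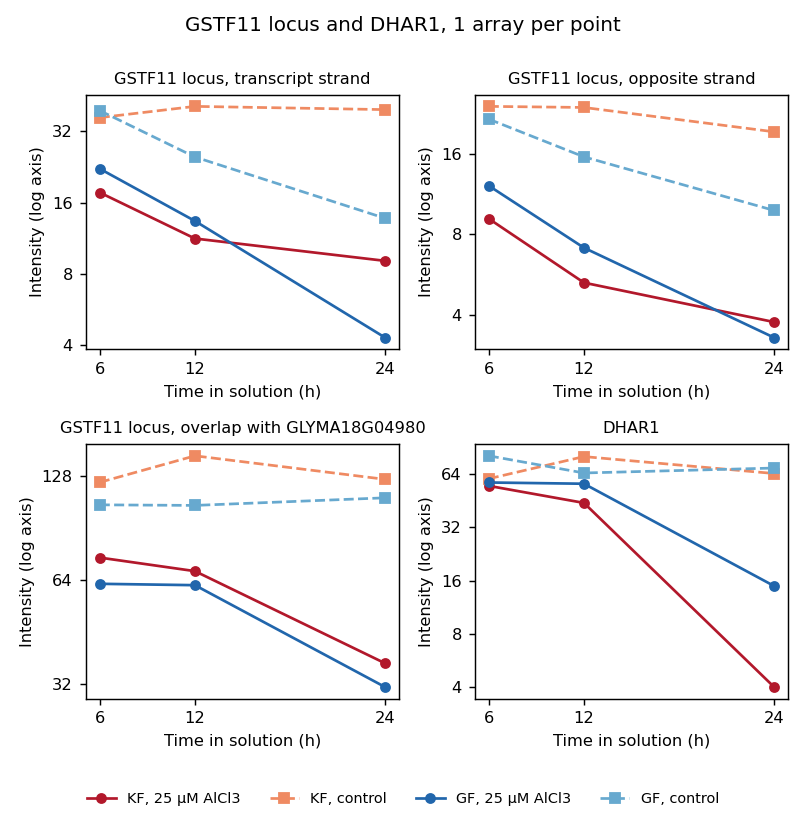
Intensity (log axis) of the 3 probe sets of the GSTF11 locus and of DHAR1 by hours in solution, with 1 array per point and the groups coloured as KF Al (red), KF control (orange), GF Al (blue) and GF control (light blue). The Al point lies below the control point of its own variety and time in all 4 panels, and DHAR1 drops to 3.99 in KF Al roots and 14.9 in GF Al roots at 24 h.

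DHAR1 (LOC100819803, GLYMA10G43730, chromosome 10, 50314048 to 50317253), the one DHAR of the set, had 55.1, 44.1 and 3.99 in KF Al roots at 6, 12 and 24 h, against 60.4, 80.7 and 64.7 in KF control roots. In GF it had 57.5, 56.6 and 14.9 in Al roots, against 81.5, 65.1 and 69.5 in control roots. Every Al array was below every control array, by little at 6 h and by much at 24 h, and the lowest value came from the KF 24 h Al array, which stood apart. The effect over both varieties was −1.33 ± 0.52 (adjusted p = 0.129), and the effect at 24 h minus that at 6 h was −2.80 ± 0.60 (adjusted p = 0.0717). This last difference passed after cyclic loess normalization (−2.55, adjusted p = 0.0472), after quantile normalization (−2.88, adjusted p = 0.0498) and without blocks (adjusted p = 0.0394). It did not pass in 10 of 14 settings, and over all of them it ran from −3.70 to −1.90.

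The single tested members of the theta and zeta classes were far above background in all arrays, and neither passed. GSTT3 (theta), whose probe set lists 2 genes, had 153, 155 and 117 in KF Al roots against 122, 106 and 94.9 in KF control roots, and 180, 176 and 126 in GF Al roots against 97.2, 108 and 108 in GF control roots. The Al array was higher in 6 of 6 pairs, with an effect of 0.50 ± 0.16 (adjusted p = 0.0752) that passed in 4 of 16 settings. GSTZ3 (zeta) had an effect of 0.11 ± 0.17 (adjusted p = 0.699).

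Time was compared through the Al effect at 24 h minus that at 6 h, whose p-value measures it against the variation between varieties. None of the 47 passed by limma, where 11 had an unadjusted p below 0.05 and 2.12% of all probe sets passed (1.95% higher and 0.171% lower). The lowest adjusted p was that of DHAR1. GSTU62, a tau gene on chromosome 20, had 3.87, 4.34 and 48.5 in KF Al roots against 3.39, 3.07 and 2.78 in KF control roots, and 4.39, 3.80 and 8.66 in GF Al roots against 3.43, 2.97 and 3.67 in GF control roots. It was near background except at 24 h with Al, and its difference between 24 h and 6 h was 2.41 ± 0.80 (adjusted p = 0.199). For GSTU47 the same difference was 2.41 ± 0.92 (adjusted p = 0.259). Without the GF 24 h pair 7 of 47 GSTs (14.9%) passed, close to the 13% of all probe sets in that fit.

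Counts in single pairs of arrays, which carry no test, show when GSTs differed. In KF, 12 of 47 were at least 2-fold higher with Al at 6 h, 10 at 12 h and 16 at 24 h, where the shares of all probe sets were 3.64%, 5.75% and 11.3%. In GF the numbers were 3, 7 and 10, against 3.33%, 5.02% and 8.76%. At least 2-fold lower were 2, 3 and 4 in KF (all probe sets 2.41%, 5.87% and 14.0%) and 1, 1 and 4 in GF (1.97%, 2.41% and 5.51%). All 6 Al arrays were above all 6 control arrays for 9 of 47 GSTs, against 5.59% of all probe sets, and below them for 2, against 3.0%.

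Other genes of glutathione metabolism were counted by gene title for the Al effect over both varieties. Among 5 tested probe sets of glutathione synthesis 1 rose, with few probe sets to set against the 6.59% of all. The 1 was LOC547545, a gamma-glutamylcysteine synthetase, the enzyme of the first step. It had 83.3, 67.4 and 39.5 in KF Al roots against 35.0, 28.9 and 17.9 in KF control roots, and 65.7, 53.9 and 42.6 in GF Al roots against 23.9, 26.3 and 12.6 in GF control roots. It was higher with Al at all 3 times in each variety, by 1.31 ± 0.16 over both (adjusted p = 0.00457), 1.21 in KF (adjusted p = 0.0291) and 1.42 in GF (adjusted p = 0.0414).

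Among ABCC transporters, the family that carries glutathione conjugates into the vacuole, 9 of 31 tested probe sets rose and 2 fell, against 6.59% and 7.19% of all. The share that fell is near that of all probe sets. The 9 rises hold 2 probe sets of the C9-like LOC100809749. They also hold the C3-like LOC100779348 (0.38), which passed the filter through Al arrays. Its intensities, from 1.69 to 3.23, were within or below the background range. The largest rise was that of the C3-like LOC100811245 (4.78 ± 0.55, adjusted p = 0.00405), whose probe set is marked as able to bind several genes. It had 178, 207 and 770 in KF Al roots against 7.5, 10.1 and 7.89 in KF control roots, and 28.0, 156 and 744 in GF Al roots against 4.81, 10.7 and 6.94 in GF control roots. The C3-like LOC100794567 rose by 4.23 ± 0.76 (adjusted p = 0.0165) and the C10-like LOC100817665 by 2.15 ± 0.27 (adjusted p = 0.00528). Controls of LOC100817665 lay at background and most of those of LOC100794567 at or near it, so the sizes for both genes are not exact. The probe sets that fell were of the C4-like genes LOC100780167 (−1.33, adjusted p = 0.0235) and LOC100808752 (−0.95, adjusted p = 0.0366).

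Of 26 tested glutaredoxin probe sets, which encode small enzymes that reduce disulphides with glutathione, 5 rose and none fell, against 6.59% and 7.19% of all. All 5 are titled glutaredoxin-C9-like, with effects from 2.33 ± 0.26 for LOC100791149 (adjusted p = 0.0038) to 2.97 ± 0.53 for LOC100818445 (adjusted p = 0.0155). Controls of LOC100818445, LOC100792704 and LOC100809924 lay at background, so the sizes of their effects are not exact. In the list of enzymes that reduce glutathione or monodehydroascorbate 2 of 15 rose, with few probe sets to set against the 6.59% of all. They were LOC100819340 (1.70, adjusted p = 0.0118) and LOC100797935 (1.41, adjusted p = 0.0364). Both are titled as nectarin-like bifunctional proteins with carbonic anhydrase activity, and no glutathione reductase was called. None of 2 glutathione peroxidase, 13 glutathione breakdown and 12 glyoxalase probe sets passed. The median effects of these lists were −0.08 for synthesis, 0.11 for reduction, 0.11 for transport, −0.03 for glutaredoxins and −0.31 for glyoxalases, against −0.04 for all probe sets.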

How the data were processed

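Root RNA was hybridised to 12 Affymetrix arrays as biotin-labelled cDNA, per the labels' protocols. The deposited intensity values were used, on a linear scale with 1 value per probe set and array. The authors normalized them between arrays with a method that is not given in the sources used here. Also deposited were 24 numbered columns of signals and calls, which fit no sample label and stayed out.

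Annotation, positions and binding marks are those of the deposited array annotation, and 61 of 64 members had their gene among RefSeq names. Log2 was taken with a pseudocount of 0. The dimmest 0.25 of main probe sets (mean log2 below 1.12) stayed out of the tests, and 49646 remained. Models were fitted in R 4.3.3 with limma 3.58.1 (lmFit, eBayes with trend) and data.table version 1.17.8. Each variety and time formed a block for Al effects, and each treatment and time for variety differences. Scripts were tested on simulated data. The number of arrays limits the precision.

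Members and lists were chosen with earlier results of these data known. Up to 12 rises and 8 falls called per comparison were named, with the largest changes not called and the leading member of each class. Other members were named after their values were seen. Alternatives changed the filter, the pseudocount, the normalization, the trend, the blocks, the arrays and the probe sets counted. No sequences were used here, so promoter motifs and protein likeness were not analysed.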

Additional observations from a re-analysis of the deposited data

How the results depend on the processing

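As reported, 18 of the tested GSTs passed for Al over both varieties, 14 in KF, 2 in GF, 0 for the difference between varieties, 0 for the difference between times, 4 for KF against GF in Al roots and 0 in control roots. Without blocks these were 6 in GF, where 2.72% of all probe sets passed (0.828% as reported). For the difference between varieties 1 passed (0.0101% of all, 0.00403% as reported). For the difference between times 2 passed (3.86% of all, 2.12% as reported). For KF against GF in Al roots 2 passed (0.804% of all, 2.25% as reported). With no filter 1 passed for the difference between varieties (0.00453% of all). After cyclic loess normalization 1 passed for the difference between times (2.44% of all) and 1 in control roots (1.31%). After quantile normalization 1 passed for the difference between times (2.38%). The other alternatives that kept all arrays stayed within 1.5 times of these counts. With arrays left out, the counts ran from 1 to 17 over both varieties, 0 to 15 in KF, 0 to 4 in GF, 0 to 1 for the difference between varieties, 0 to 7 for the difference between times, 1 to 5 for KF against GF in Al roots and 0 to 1 in control roots. Shares of all probe sets ran from 0.187% to 15.1% over both varieties, 0% to 6.63% in KF and 0% to 2.87% in GF. For the difference between varieties the shares ran from 0% to 0.0121%. For KF against GF they ran from 0.254% to 2.74% in Al roots and from 0.151% to 2.53% in control roots. The count of 7 for the difference between times was set against its share above. Over both varieties and in KF the lowest counts came without the 12 h arrays. No probe set of the whole table then passed in KF or in GF alone. The difference between times could not be fitted without the 6 h or the 24 h arrays. Of the values recomputed for named members, 723 stayed on their side of the threshold, 22 came to pass, 108 ceased to pass and none changed direction. GSTU42 no longer passed in GF without any 1 of the GF pairs (adjusted p from 0.0673 to 0.0872), and GSTU21 no longer passed in GF without the KF 6 h, KF 12 h, GF 12 h or GF 24 h pair (adjusted p from 0.0504 to 0.202). The fits as reported pair arrays by variety and time, or by treatment and time, and the labels carry no replicate numbers to pair by. With few arrays and controls at background, effects of dim members are limited to a direction.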

Other observations

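Some glutathione-related genes outside the GSTs differed in their Al effect between 24 h and 6 h. The ABCC3-like gene LOC100777836 had 2.50, 3.15 and 44.4 in KF Al roots at 6, 12 and 24 h, against 1.88, 1.81 and 1.93 in KF control roots. In GF it had 2.22, 2.43 and 42.3 in Al roots, against 1.93, 2.05 and 2.03 in control roots. Its signal left the background at 24 h with Al in both varieties, and without the 24 h Al arrays its mean log2 intensity was 1.11, below the limit of the filter. The difference between the effects at 24 h and 6 h was 4.15 ± 0.27 against background, and it is given as a description, since those arrays brought the gene into the test. Among tested glutaredoxin probe sets 3 of 26 passed the same comparison, all higher, against 1.95% higher of all probe sets. They were led by LOC100809924 (2.94 ± 0.40, adjusted p = 0.016), whose controls lay at background, so this size is not exact.

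Among the GSTs under the filter, LOC100777495 on chromosome 15 had an intensity of 4.32 in the KF 24 h Al array, and it was at most 1.88 in the other Al arrays and at most 2.15 in control arrays. It was not tested.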
